A study of Mus musculus with 2 samples.

Results

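The genes described here run the switch between making lactate and burning pyruvate: the lactate dehydrogenase subunits Ldha and Ldhb, the lactate transporters Slc16a1 and Slc16a3, the glucose transporters Slc2a1 and Slc2a3, the hexokinases Hk1 and Hk2, the phosphofructokinase Pfkp and the pyruvate dehydrogenase kinase Pdk1. Expression was measured on 2 arrays of mouse cells. The first carried RNA of cells labelled lymphoma that shared a culture with endothelial cells (the lining of blood vessels), and the second RNA of cells labelled lymphoma from a medium containing serum. The labels name no lymphoma line, strain, age, source of the endothelial cells, length of culture or step to separate the 2 cell types, and no medium for the co-culture. The 10 genes were chosen by their known roles together with differences already seen on these 2 arrays, so their values are a description and carry no test. They had 25 of the 45101 probe sets, groups of short probes against 1 transcript, each with exactly 1 of the 10 gene symbols, and they were 10 of 18194 genes with a probe set. A further probe set annotated to Hk1 together with other genes was not used.

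Cells that take up much glucose phosphorylate it with hexokinase, split it through glycolysis and end at pyruvate. Pyruvate then either enters the mitochondria, where pyruvate dehydrogenase commits it to the citrate cycle, or is reduced by lactate dehydrogenase to lactate, which leaves through proton-coupled transporters. Lymphoma cells, like other fast-dividing cells, are known for a high output of lactate even with oxygen present, and lactate passed between tumour and vessel cells has been studied as a fuel and a signal.

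The data are the authors' linear intensities, 1 value per probe set and array. A probe set was called measured when it exceeded the floor, the pooled median intensity of both arrays (44.3), on at least 1 array; values under the floor were set to it before log2 was taken. Of the 18194 genes 11560 were measured by their brightest probe set, and so were all 10 genes described here. Of the 25 probe sets 22 were measured. With 1 array per culture no test between cultures can be made and the number of arrays limits the precision. The error used is the pooled SD of log2 differences between probe sets of 1 gene, 0.60 over 5480 genes. It covers disagreement between probe sets. Effects that all probe sets of an array share, and the spread between cultures, are not in it.

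Some features of the arrays stand beside every difference below. The 3′ to 5′ intensity ratio of control probe sets, which grows as RNA gets shorter, was 2.05 in co-culture and 3.56 in serum for beta-actin, 1.88 and 2.54 for Gapdh, and 5.03 and 13.2 for Tfrc, and its part in the differences was not tested. Markers of the labelled cell type were mostly near background. Sums here are raw intensities over all genes of a list on the array, those under the floor included. Of 14 B-lineage markers on the array 5 were measured, and the 14 summed to 5386 in co-culture and 3887 in serum, most of it from Cd24a, while Pax5 (2.16 and 2.52) and Cd79a (30.9 and 34.7) were under the floor. Of 13 pan-leukocyte markers 4 were measured, and the 13 summed to 446 in co-culture and 446 in serum. Of 16 endothelial markers 3 were measured (all 16 summed to 909 in co-culture and 802 in serum). These were Egfl7 (532 and 473), Eng (58.5 and 36.5) and Flt1 (26.4 and 93.3). The other 13 were under the floor on both arrays. Among them were Pecam1, the platelet endothelial adhesion molecule (18.4 and 21.3), and Cdh5, the endothelial cadherin (44.1 and 19.6). Kdr, a receptor for vascular growth factor (38.4 and 19.5), was another. Of 11 mesenchymal markers 6 were measured (all 11 summed to 7852 in co-culture and 7970 in serum, mostly Vim). Of 9 epithelial markers 2 were measured (all 9 summed to 303 and 182), and of 9 spermatogenic markers 5 (all 9 summed to 489 and 428). The labels do not say whether the RNA came from whole cultures or from separated cells. In RNA of mixed cells, fewer cells of a type and less RNA per cell cannot be told apart.

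In co-culture Ldhb was far lower and Slc16a3 higher, and the other 8 genes lay within 2-fold. Ldhb was 8.73-fold lower by its brightest probe set and Slc16a3 was 2.54-fold higher. So 1 of 10 genes was at least 2-fold higher and 1 of 10 at least 2-fold lower, where 4.52% of all measured genes were that much higher and 9.97% that much lower. The median log2 difference, co-culture minus serum, was -0.08 for the 10 genes and -0.06 for all measured genes. Nothing is read from these shares, since the genes were picked with the same contrast in view.

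**Figure D1:**
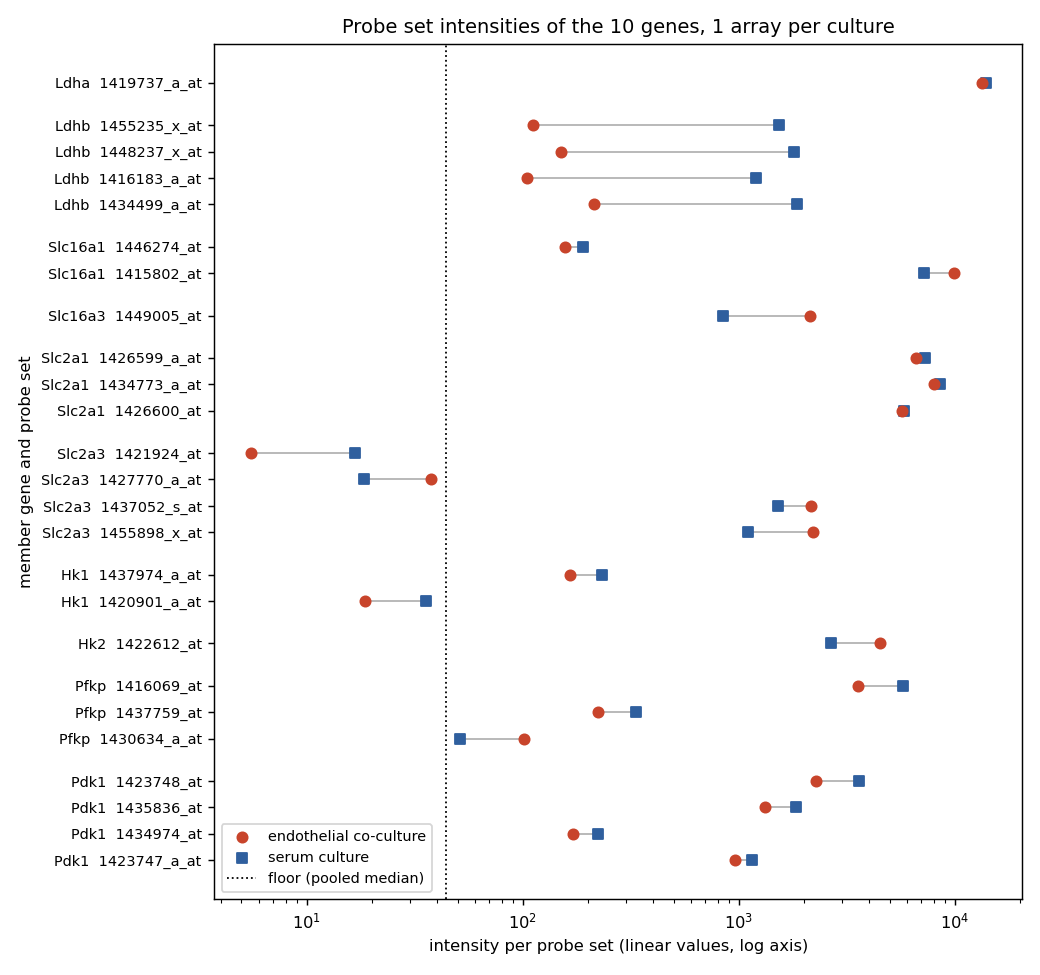
Intensity of each of the 25 probe sets (log axis) on the co-culture array (circles) and the serum array (squares), 1 array per culture, with the floor of 44.3 as a dotted line. The 4 Ldhb probe sets sit between 104 and 213 in co-culture and between 1196 and 1862 in serum, while the pairs of Ldha and Slc2a1 nearly coincide.

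Lactate dehydrogenase is a tetramer built from 2 kinds of subunit. Ldha encodes the M subunit, abundant in muscle and in tumours and suited to turning pyruvate into lactate, and Ldhb the H subunit, abundant in heart and suited to turning lactate back into pyruvate. The sequence before each gene is shown first, because these subunits of 1 enzyme hold both the lowest difference of the 10 genes (Ldhb) and the one nearest 0 (Ldha). These are windows of RefSeq on GRCm38.p6, from 250 bases before to 50 bases after the annotated start, 5′ to 3′ on the strand of the gene. Capitals mark ACGTG and GCGTG on either strand, the 2 forms of the core that hypoxia-inducible factors bind. The first is the Ldhb window (chr6:142507908-142508207, minus strand), the second is the upstream of 2 Ldha windows (chr7:46845554-46845853, plus strand), and the third is that of Slc16a3 (chr11:120948817-120949116, plus strand), the gene with the highest difference of the 10.
Ldhb: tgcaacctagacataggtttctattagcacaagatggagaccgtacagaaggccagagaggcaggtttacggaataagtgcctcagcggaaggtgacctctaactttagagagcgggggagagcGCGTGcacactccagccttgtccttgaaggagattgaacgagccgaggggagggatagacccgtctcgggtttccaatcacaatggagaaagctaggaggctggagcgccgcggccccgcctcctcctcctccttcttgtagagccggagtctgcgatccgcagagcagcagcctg
Ldha: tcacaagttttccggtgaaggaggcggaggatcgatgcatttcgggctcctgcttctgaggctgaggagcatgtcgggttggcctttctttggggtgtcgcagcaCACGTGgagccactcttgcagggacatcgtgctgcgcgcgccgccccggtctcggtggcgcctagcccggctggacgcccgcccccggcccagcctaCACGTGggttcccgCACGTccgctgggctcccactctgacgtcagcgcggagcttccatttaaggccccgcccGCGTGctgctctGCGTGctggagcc
Slc16a3: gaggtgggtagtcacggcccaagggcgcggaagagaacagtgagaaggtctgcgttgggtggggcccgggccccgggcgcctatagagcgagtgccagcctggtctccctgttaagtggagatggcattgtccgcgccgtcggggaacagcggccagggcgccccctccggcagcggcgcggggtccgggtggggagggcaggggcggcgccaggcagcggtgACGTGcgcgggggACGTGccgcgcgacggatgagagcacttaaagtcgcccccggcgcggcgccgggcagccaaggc

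The Ldhb window held 0 matches of ACGTG and 1 of GCGTG, and the Slc16a3 window held 2 of ACGTG and 0 of GCGTG. The Ldha window held 5 matches of ACGTG and 2 of GCGTG. Among them are 2 copies of CACGTG, the E-box that MYC and the glucose-sensing MLX partners bind, and since CACGTG reads the same on both strands each copy counts as 2 overlapping matches of ACGTG. The windows held 17 CpG dinucleotides for Ldhb, 30 for Ldha and 36 for Slc16a3, against a median of 7 over 32841 windows of the same length. Of the 10 genes 9 had a window, 12 windows in all, and 10 of the 12 held ACGTG or GCGTG, as did 43.8% of all windows. CACGTG stood in 2 of the 12, those of Ldha and Slc16a1, and in 7.15% of all windows. The windows of the 10 genes are mostly rich in G and C (73.3% for Slc16a3, 67.3% for Ldha and 57.3% for Ldhb, against a median of 52.7%). A match is a run of letters and not a bound site. Both forms of the core and the E-box contain a CpG, so windows rich in CpG have more places for a match. The windows compared were not matched for CpG or base content, and nothing is read from the shares with a match. Whether the shares differ at equal CpG content was not tested. Slc2a3 was the gene without a window in the table.

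Ldha was bright and nearly equal on the 2 arrays. Its single probe set read 13332 in co-culture and 13890 in serum, a log2 difference of -0.06, or -0.25 when the arrays were scaled to the bacterial hybridisation spikes, which moved the median of all measured genes to -0.25. Ldhb, by contrast, was lower in co-culture by each of its 4 probe sets. They read 213, 150, 111 and 104 in co-culture, against 1862, 1798, 1536 and 1196 in serum, in the same order of probe sets. The highest co-culture value lay below the lowest serum value, and all 8 values were above the floor, so no difference is a bound. The log2 differences were -3.13, -3.58, -3.79 and -3.52, with a mean of -3.50 ± 0.28 (SD over 4 probe sets of 1 gene, which share 1 RNA sample on each array and are not replicates). The brightest probe set, whose value stands for the gene, gave the smallest of these differences.

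The log2 difference of Ldhb minus that of Ldha was -3.07, a gap that any common scaling of an array leaves as it is. Ldhb ranked 12th from the lowest of 11560 measured genes, and Ldha was near the middle, with 50.1% of measured genes lower. All probe sets of both genes have identifiers ending in _a_at or _x_at. In the naming of this array family the first marks probes that match several transcripts of 1 gene, and the second marks some probes that may also match other sequences. With the _x_at probe sets left out, those remaining for Ldhb were the ones with -3.13 and -3.52.

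A gene with 4 or more measured probe sets rarely had all of them past 2-fold. Of 1025 such genes 2 had all probe sets at least 2-fold lower and 1 had all at least 2-fold higher. Ldhb was lower by all and had the lowest mean difference of the 1025. This is a description, since Ldhb was picked with differences on these arrays in view. The platform annotation gives its probe sets with -3.58 and -3.52 the same source sequence. The other gene lower by all was Oxct1, named here after its values were seen, which encodes the mitochondrial enzyme that activates ketone bodies for oxidation. Its 4 probe sets read 184, 595, 1242 and 523 in co-culture and 1383, 2307, 4796 and 2010 in serum, with log2 differences between -2.91 and -1.94.

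**Figure D2:**
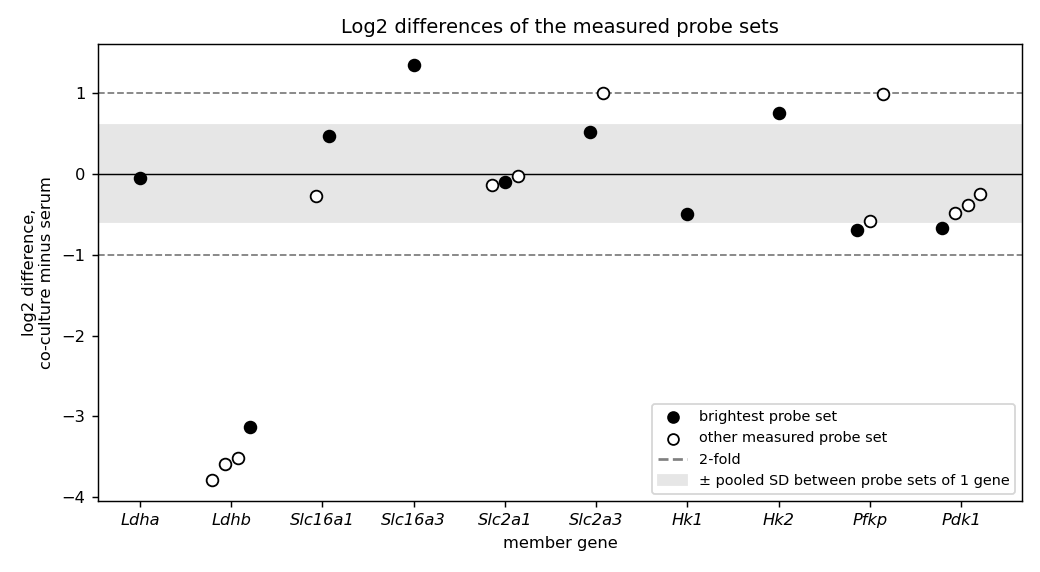
Log2 difference (co-culture minus serum) of the 22 measured probe sets of the 10 genes, with the brightest probe set of each gene filled, dashed lines at 2-fold and a grey band of ± 0.60, the pooled SD between probe sets of 1 gene. The 4 Ldhb points lie between -3.79 and -3.13, the Slc16a3 point at 1.35, and those of Pfkp spread from -0.69 to 0.98.

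The lactate transporters differed between the arrays by unequal amounts. Slc16a3 encodes MCT4, which exports lactate from strongly glycolytic cells and is known as a target of hypoxia-inducible factor. Its single probe set read 2146 in co-culture and 844 in serum, a log2 difference of 1.35, and 241st from the highest of 11560 genes. No second probe set checks this value. Slc16a1 encodes MCT1, which carries lactate, pyruvate and ketone bodies either way and is known as a MYC target. Its brighter probe set read 9939 in co-culture and 7168 in serum (log2 difference 0.47), while a dimmer one read 157 and 189 (-0.27). The 2 probe sets of Slc16a1 thus pointed opposite ways, both within the pooled SD. The difference of Slc16a3 exceeded that of the bright Slc16a1 probe set by 0.87 on the log2 scale.

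Of the glucose transporters, Slc2a1 was nearly equal on both arrays and Slc2a3 was higher in co-culture by its 2 measured probe sets. Slc2a1 encodes GLUT1, the basal glucose carrier of most dividing cells. Its 3 probe sets read 7977, 6604 and 5698 in co-culture and 8535, 7278 and 5821 in serum, with log2 differences of -0.10, -0.14 and -0.03. The SD of these differences was 0.06. Slc2a3 encodes GLUT3, a high-affinity carrier best known from neurons. Of its 4 probe sets 2 were measured, and they read 2166 and 2210 in co-culture, against 1519 and 1104 in serum, with log2 differences of 0.51 and 1.001. The remaining 2 read 37.8 and 5.54 in co-culture and 18.5 and 16.8 in serum, all under the floor.

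Slc2a3 therefore sits at the 2-fold limit depending on the probe set. The brighter one, which stands for the gene, keeps it inside (1.43-fold) and the other puts it just past (2.002-fold). The platform annotation gives both the same source sequence, and their identifiers end in _s_at and _x_at, marks of probes that can match more than 1 gene. Over all probe sets of the 10 genes, 2 of the 22 measured were at least 2-fold higher (that of Slc16a3 and this one of Slc2a3) and 4 at least 2-fold lower (all of Ldhb). Among all measured probe sets of 1 gene the shares were 8.17% higher and 8.05% lower. The nearest probe set inside the limit was one of Pfkp, with 0.98.

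Hexokinase adds the first phosphate to glucose and keeps it in the cell. Hk2 encodes the inducible isoform of muscle, fat and many tumours, which binds mitochondria. Its single probe set read 4493 in co-culture and 2681 in serum, a log2 difference of 0.74 (1.68-fold), and 91.4% of measured genes had a lower difference. Hk1 encodes the isoform of most adult tissues. One Hk1 probe set read 165 in co-culture and 233 in serum (log2 difference -0.49), and the other, at 18.7 and 35.7, was under the floor on both arrays. The difference of Hk2 exceeded that of Hk1 by 1.24 on the log2 scale. Neither gene passed 2-fold, and each rests on 1 measured probe set.

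Pfkp encodes the platelet type of phosphofructokinase, which makes the committed step of glycolysis. Its brightest probe set read 3545 in co-culture and 5735 in serum (log2 difference -0.69) and a dimmer one 224 and 336 (-0.59). The dimmest read 101 and 51.2 (0.98), close to the floor, and went the other way. Pdk1 phosphorylates and so switches off pyruvate dehydrogenase, which keeps pyruvate out of the citrate cycle. Its 4 probe sets read 2269, 1322, 171 and 959 in co-culture and 3611, 1847, 223 and 1145 in serum. All 4 Pdk1 probe sets were lower in co-culture, with log2 differences of -0.67, -0.48, -0.38 and -0.26 and a mean of -0.45 ± 0.17 (SD over 4 probe sets). Of all measured genes 18.4% had a lower difference than its brightest probe set.

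**Figure D3:**
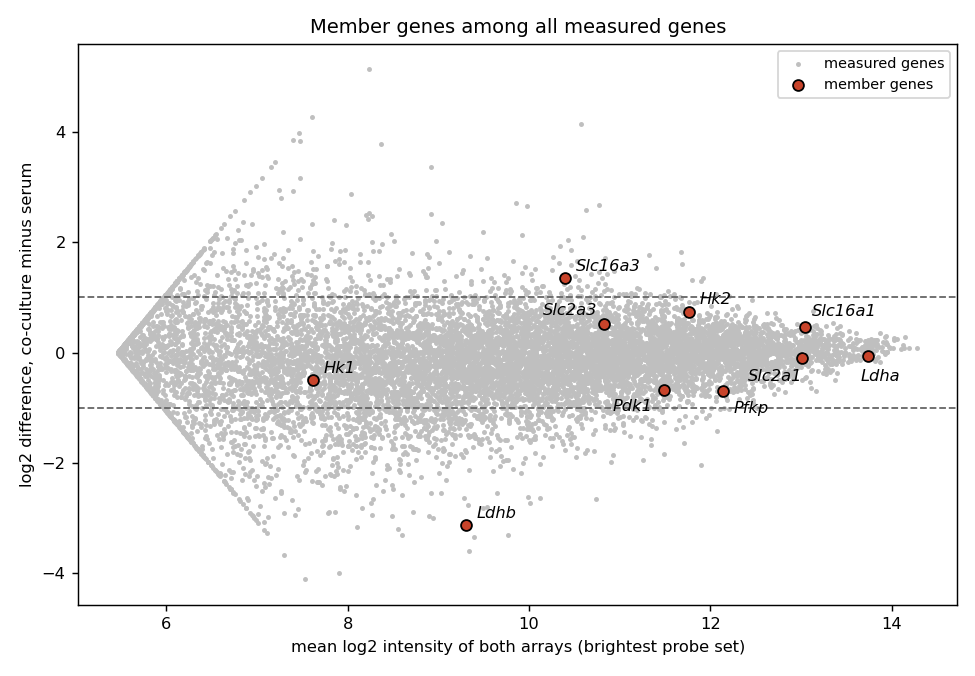
Log2 difference (co-culture minus serum) against mean log2 intensity for the 11560 measured genes (grey) and the 10 genes described (red), each by its brightest probe set, with dashed lines at 2-fold. Ldhb lies at -3.13 and Slc16a3 at 1.35, and the other 8 lie between -0.69 and 0.74.

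The remaining enzymes of glycolysis were mostly within 2-fold. Of 17 other glycolytic enzymes with a probe set 15 were measured, 0 were at least 2-fold higher and 2 lower, with a median log2 difference of -0.09. Of all measured genes 4.52% were that much higher and 9.97% that much lower. The counts of this list and of those below stand beside these shares, and nothing is read from them. The lower ones were Eno3, the muscle enolase (874 in co-culture and 2217 in serum, 2.54-fold lower), and Pfkl, the liver phosphofructokinase (1413 and 2902, 2.05-fold lower, although another of its probe sets gave 1.37). Gapdh, the dehydrogenase in the middle of the pathway, read 13707 in co-culture and 15155 in serum by the 3′ control probe set, the brightest of those that name it alone. Pkm, the pyruvate kinase, read 12446 and 12793. Ldha, Slc2a1 and Pkm therefore all had log2 differences between -0.10 and -0.04. Of the 4 measured regulators of fructose 2,6-bisphosphate, the activator of phosphofructokinase, none passed 2-fold (median 0.08). Tigar, which degrades it, had 0.30, and Pfkfb3, which makes it, 0.10.

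Among the close relatives of the members few were measured. Of 3 other lactate dehydrogenases 1 was measured, Ldhal6b, at least 1.33-fold lower (3.54 in co-culture and 58.7 in serum), and the testis isoform Ldhc was under the floor. Of 15 other monocarboxylate transporters and their chaperones 6 were measured and none passed 2-fold, with a median of 0.22. Bsg, the chaperone basigin that carries MCT1 and MCT4 to the cell surface, read 4658 in co-culture and 4310 in serum (0.11). Slc16a10, a transporter of aromatic amino acids, had 0.17 by its brightest probe set. Its 2 other measured probe sets had 1.15 and 1.32, both past 2-fold. Of 12 other glucose and hexose transporters 3 were measured and none passed 2-fold (median -0.33). Slc2a6 had -0.33 and the sodium-coupled Slc5a2 -0.18.

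Most measured genes of the path of pyruvate into the mitochondria were within 2-fold. Of 13 measured genes 1 was higher and 2 were lower (median -0.25), where 4.52% of all measured genes were higher and 9.97% lower. Pdhx, which tethers a subunit of pyruvate dehydrogenase, was 2.02-fold lower (951 in co-culture and 1919 in serum). Of the other kinases of that complex, Pdk3 was nearly equal on the arrays (951 in co-culture and 977 in serum, -0.04). Pdk2 was at least 2.09-fold lower (5.26 and 92.5) and Pdk4 at least 2.12-fold higher (93.9 and 16.0005), both dim on the array where they were brighter.

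Of 15 measured citrate cycle genes, 1 was lower and 0 were higher (median -0.48, beside -0.06 for all measured genes). The shares past 2-fold over all measured genes were 9.97% lower and 4.52% higher. By another measured probe set Dlst had 1.54, where its brightest had 0.14. Sdhb, a subunit of succinate dehydrogenase, was 2.002-fold lower (3215 in co-culture and 6436 in serum), and Mdh2, the mitochondrial malate dehydrogenase, had -0.06. The shuttles that pass NADH reducing power to the mitochondria, the alternative to lactate for renewing NAD, had 1 of 7 higher and 0 lower (median -0.26, but 0.30 with the mean over measured probe sets). Slc25a13, an aspartate and glutamate carrier, was 2.64-fold higher (1377 and 522). Mdh1, the cytosolic malate dehydrogenase, had -0.70, and -1.25 and -0.75 by its other measured probe sets. Got2, the mitochondrial aspartate aminotransferase, had -0.37 by its brightest probe set and up to 1.21 by another.

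**Figure D4:**
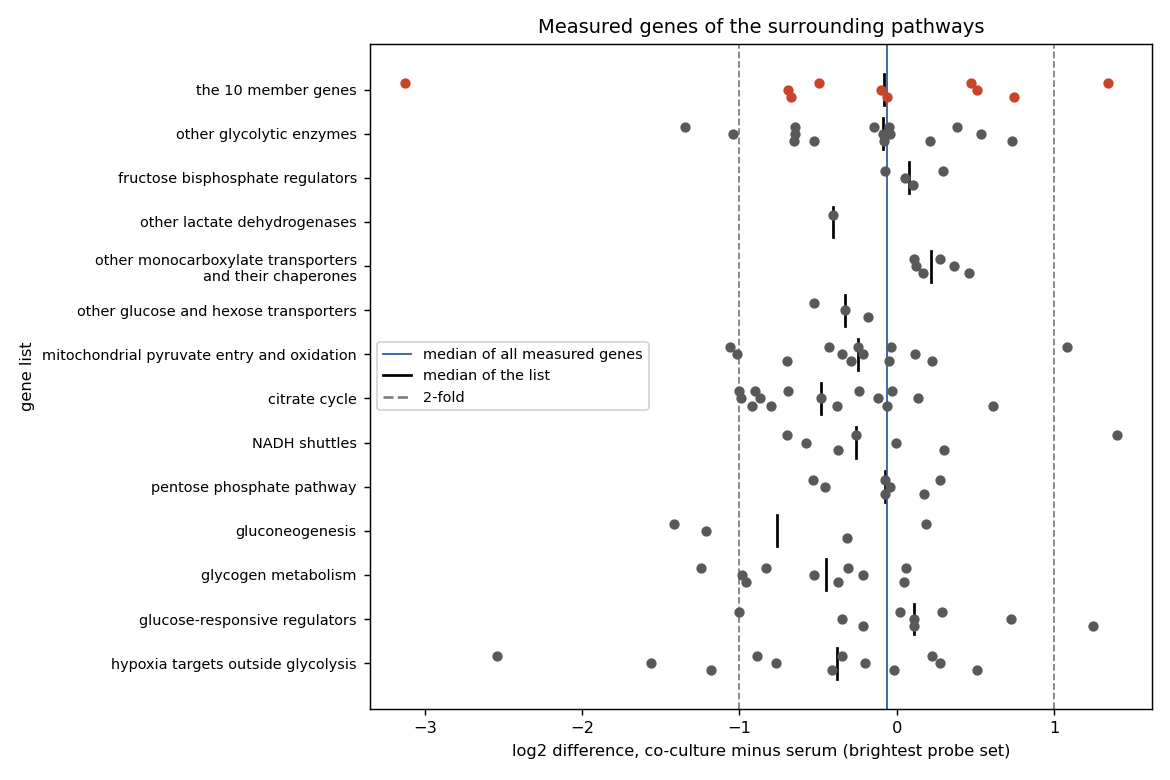
Log2 difference (co-culture minus serum) of each measured gene by its brightest probe set, for the 10 genes described (red) and 13 lists around them (grey), with the median of each list (black bar), the median of all measured genes (-0.06, blue line) and 2-fold (dashed). Ldhb at -3.13 is the leftmost point, and the medians of the 13 lists lie between -0.76 and 0.22.

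Genes of pathways that branch from glycolysis were mostly within 2-fold by their brightest probe sets. Of all measured genes 4.52% were at least 2-fold higher and 9.97% lower, and nothing is read from the counts. All 7 measured genes of the pentose phosphate pathway were within 2-fold by their brightest probe sets. Their median was -0.07, but 0.17 with the mean over measured probe sets. Pgd had -0.07 and Tkt, the transketolase, -0.46. A dimmer probe set of Tkt had 2.49, and one of Rpe had 1.04. Of 4 measured gluconeogenesis genes 2 were lower and 0 higher (median -0.76). Pck2, which makes phosphoenolpyruvate in mitochondria, was 2.67-fold lower (2632 in co-culture and 7037 in serum, and -1.60 by its other probe set), and Fbp1 was 2.32-fold lower (61.4 and 142). Of 10 measured glycogen genes 1 was lower and 0 higher (median -0.45): Gys1, glycogen synthase, was 2.37-fold lower (221 and 523). Gyg, the primer of glycogen, had -0.98, and -1.13 by its other measured probe set.

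Regulators known to act on these genes were mostly within 2-fold. Of 9 measured glucose-responsive regulators 1 was higher and 1 lower (median 0.11), where 4.52% of all measured genes were higher and 9.97% lower. Prkaa1, a catalytic subunit of the AMP-activated kinase, was 2.38-fold higher (1011 in co-culture and 425 in serum), and Mlxipl, the carbohydrate response factor ChREBP, was 2.004-fold lower (587 and 1176). Prkaa2 had -0.35 by its brightest probe set and -1.58 by its other measured one. Hif1a had 0.29 by its brightest probe set, and -0.49 and -0.37 by its 2 other measured ones. Myc was under the floor on both arrays (9.34 in co-culture and 23.8 in serum). Hypoxia targets outside glycolysis had 3 of 12 lower and 0 higher (median -0.38): Adm, Ndrg1 and Bnip3, with log2 differences of -2.54, -1.57 and -1.18. Another measured probe set of Adm had -0.998, inside 2-fold, and those of Ndrg1 ran from -1.58 to 0.10. Of the 10 genes, those known as targets of the same factor lay on both sides of 0: Slc16a3 had 1.35, Hk2 0.74 and Slc2a3 0.51, and Ldha had -0.06, Slc2a1 -0.10 and Pdk1 -0.67.

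The measured genes beside Ldhb on the chromosome were less low than Ldhb, and those beside Slc16a3 less high. Nothing is read from this, since Ldhb and Slc16a3 were taken as the extremes of the 10 genes with their values known. Ldhb lies on chromosome 6, and of the 10 protein-coding genes with a probe set nearest to it, 5 on each side, 6 were measured. Recql, a DNA helicase, had a log2 difference of 0.00 and Cmas, which activates sialic acid, also had 0.00, while Golt1b, of Golgi transport, had 0.62 and Pyroxd1, an oxidoreductase, -1.25. Gys2 and Kcnj8, the immediate neighbours, were under the floor on both arrays. Slc16a3 lies on chromosome 11 between Ccdc57 and Csnk1d. Ccdc57 read 56.0 in co-culture and 278 in serum (-2.31) and the kinase Csnk1d 2181 and 2630 (-0.27). Fasn, the fatty acid synthase on the far side of Ccdc57, had 0.15.

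**Figure D5:**
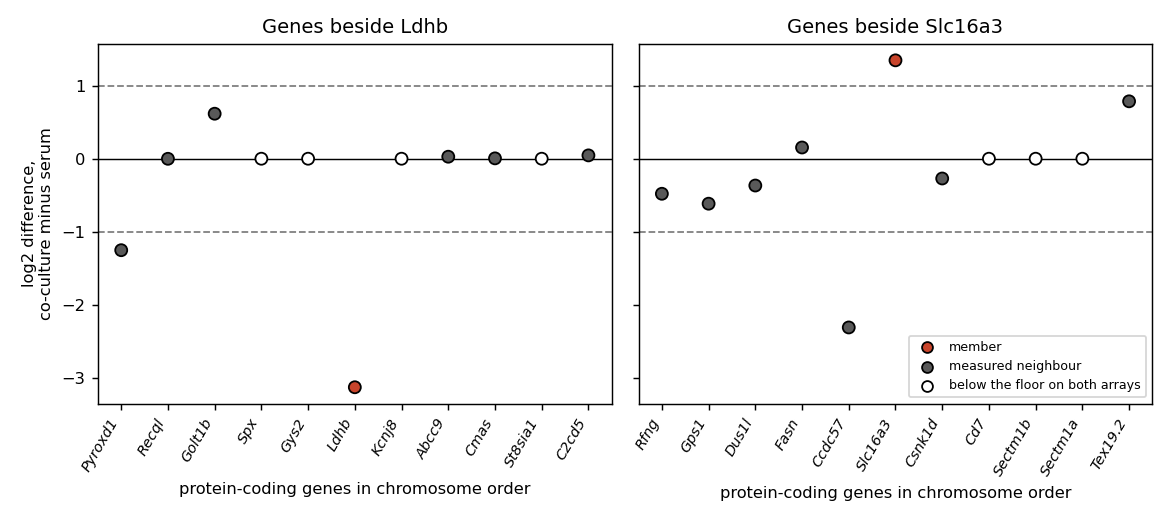
Log2 difference (co-culture minus serum) of Ldhb and of Slc16a3 (red) and of the 5 protein-coding genes with a probe set on each side of them in chromosome order, measured (grey) or under the floor on both arrays (white, drawn at 0). Ldhb at -3.13 lies below each measured gene beside it, and Slc16a3 at 1.35 lies above each measured gene beside it.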

How the data were processed

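Total RNA was purified with a column kit and labelled with biotin through in vitro transcription, per the labels' protocols, for 1-colour arrays, 1 per culture. The authors deposited 1 linear intensity per probe set (45101 on each array); no source used here gives their software, background correction or normalization. Trimmed of 2% at both ends, the intensities averaged 500.003 on either array.

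Symbols came from the platform annotation, updated by gene number to RefSeq of GRCm38.p6: 34958 probe sets had 1 symbol, 932 several and 9211 none. Intensities below 44.3 were set to it before log2, and the brightest probe set stood for its gene. A gene was called higher or lower from 2-fold. The steps were tested on simulated data, with planted changes above 2-fold in bright genes and a spread below the pooled SD. This does not check 2-fold calls at the spread seen here. With 1 array per group no test was possible. Named genes were every member, list genes past 2-fold (or the brightest, up to 2), Gapdh, Pkm and Mdh1, and the brightest gene of the B-lineage, endothelial and mesenchymal marker lists. Other marker, list and neighbouring genes, and Oxct1, were picked with their values known. The members, the 13 pathway lists and the 6 marker lists were chosen with earlier results of these data known. Calculations used Python 3.11.15, numpy 2.4.6 and pandas 2.3.3.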

Additional observations from a re-analysis of the deposited data

How the results depend on the processing

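Of 74 values of the 10 genes under 8 alternatives, all kept their sign and all stayed on their side of 2-fold. Many of them could not change, so nothing is read from that count. Moving the floor, averaging probe sets or leaving probe sets out left Slc16a3 at 1.35 and Hk2 at 0.74. Genes without a measured probe set in an alternative have no value there and are not counted. Ldhb ranged from -3.50 to -2.26 on the log2 scale, with -2.26 where the floor was at percentile 75 (389), above all its co-culture values, and Slc16a3 from 1.15 (scaling to hybridisation spikes) to 1.41 (quantile normalization). Without _s_at, _x_at, _a_at and _f_at probe sets, 0 genes and 0 probe sets of the 10 were lower, because no probe set of Ldhb is left, and 1 probe set was higher. Ldha, Hk1 and Slc2a3 have no value there either, which leaves 6 of the 10 genes. Without _s_at, _x_at and _f_at ones, an alternative added after the data were seen, 1 probe set was higher and 2 were lower. Probe sets higher numbered 1 with a pseudocount of 16 and with spikes, and 3 with the floor at percentile 25. Over all measured genes, 2029 were higher with the floor at percentile 25, 143 with it at percentile 75 (and 397 lower) and 853 with the pseudocount, against 523 higher and 1152 lower as reported. Of the 13 list medians 9 kept their sign and 4 did not: with the mean over measured probe sets the NADH shuttles had 0.30 and the pentose phosphate pathway 0.17, and with spikes the regulators of fructose 2,6-bisphosphate had -0.11 and the glucose-responsive regulators -0.08. Scaling to spikes moved the median of all measured genes to -0.25, and its counts over all measured genes (352 higher and 1604 lower) stayed within 1.5 times those reported. The floor hides any difference between values under 44.3, and no value here covers the spread between cultures.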
